A study of Mus musculus with 44 samples.

Results

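H3K4me2 at gene start sites was compared between HPC7 cells that express wild-type Snai1 and HPC7 cells that carry the empty vector. The columns of the count table for these constructs were chosen by construct, mark and replicate number, which gave 6 of the 44 samples: 3 wild-type and 3 empty-vector libraries. All 27044 gene windows with a distinct, non-zero count profile were described, and 25742 of them passed the filter on low counts and were tested. HPC7 is a mouse blood progenitor line that grows in stem cell factor. An MSCV-IRES-GFP retrovirus brought in either no gene (EV) or wild-type Snai1 cDNA (WT), and GFP-positive cells were sorted 1 week later and grown on. All groups therefore carry the retrovirus and GFP, and the Snai1 groups carry Snai1 from the vector, not from its own locus. A further group carried Snai1 with 1 amino acid substitution that impairs its interaction with the demethylase Lsd1; its 3 H3K4me2 libraries entered the fit and are given beside the results. The labels number the replicates but do not say whether they are separate cultures or transductions, so the p-values measure only the spread between these libraries, which may be technical.

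Snai1 is a zinc finger repressor known for binding E-box sequences and for silencing epithelial genes in epithelial-mesenchymal transition. Its amino-terminal SNAG domain, which the blood factors Gfi1 and Gfi1b also carry, recruits Lsd1 (gene Kdm1a) and the CoREST scaffold. Lsd1 removes mono- and dimethyl groups from lysine 4 of histone H3. H3K4me2 lies at active and poised promoters and enhancers, and in progenitors it also marks genes primed for later lineages.

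The promoters of 5 genes whose windows stood out in both batches of libraries are printed here to show their base composition and the Snai1 motif. Each run holds 250 bases before to 50 bases after the annotated start, 5′ to 3′ on the gene's strand (RefSeq, GRCm38.p6). Capitals mark the E-box CAGGTG or its reverse complement CACCTG, and a run with no capitals holds neither.
Glyat, chr19:12633058-12633357, plus strand: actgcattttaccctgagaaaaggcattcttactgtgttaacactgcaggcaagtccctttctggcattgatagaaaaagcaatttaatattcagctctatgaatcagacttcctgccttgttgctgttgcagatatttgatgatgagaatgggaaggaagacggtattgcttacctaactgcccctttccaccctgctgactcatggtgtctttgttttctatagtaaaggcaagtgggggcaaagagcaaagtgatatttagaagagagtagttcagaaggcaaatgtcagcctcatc
Tom1l1, chr11:90687552-90687851, minus strand: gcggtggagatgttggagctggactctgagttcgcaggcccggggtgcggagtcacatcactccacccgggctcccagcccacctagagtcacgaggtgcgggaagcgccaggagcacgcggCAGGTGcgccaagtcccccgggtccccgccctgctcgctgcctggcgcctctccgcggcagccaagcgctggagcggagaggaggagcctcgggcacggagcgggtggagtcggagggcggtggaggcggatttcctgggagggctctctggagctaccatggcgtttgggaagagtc
N4bp3, chr11:51651024-51651323, minus strand: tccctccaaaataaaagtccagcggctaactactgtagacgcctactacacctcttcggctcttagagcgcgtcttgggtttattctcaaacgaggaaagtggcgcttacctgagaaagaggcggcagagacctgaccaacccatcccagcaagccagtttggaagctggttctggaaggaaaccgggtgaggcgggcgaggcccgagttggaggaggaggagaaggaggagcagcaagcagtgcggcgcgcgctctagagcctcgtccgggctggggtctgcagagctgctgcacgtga
Kcnk12, chr17:87797945-87798244, minus strand: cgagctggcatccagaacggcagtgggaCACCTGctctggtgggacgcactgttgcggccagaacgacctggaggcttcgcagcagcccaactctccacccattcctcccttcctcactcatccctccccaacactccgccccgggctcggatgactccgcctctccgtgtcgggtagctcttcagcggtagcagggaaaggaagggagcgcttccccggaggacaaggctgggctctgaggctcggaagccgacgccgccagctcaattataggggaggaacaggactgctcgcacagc
Adgre4, chr17:55749734-55750033, plus strand: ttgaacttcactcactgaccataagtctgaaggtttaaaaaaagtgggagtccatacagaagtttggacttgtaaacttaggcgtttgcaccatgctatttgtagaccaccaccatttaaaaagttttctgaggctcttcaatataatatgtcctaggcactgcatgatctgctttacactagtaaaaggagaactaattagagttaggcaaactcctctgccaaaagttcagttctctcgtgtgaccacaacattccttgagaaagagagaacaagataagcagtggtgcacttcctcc
The Tom1l1 run has the motif 128 bases and the Kcnk12 run 222 bases before the start, and the other 3 runs have none. Their GC content ranged from 40.3% in the Adgre4 run to 70.0% in the Tom1l1 run.

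The libraries held between 8694515 and 17553273 reads in the windows, which the name of the table gives as 5 kb around the start site. Most blood progenitor markers carried the mark in every library. The summed CPM (counts per 1e6 reads) of 11 progenitor markers was 1452 to 1650 in the EV libraries and 1441 to 1668 in the WT libraries, with a median marker at 161 CPM. Erg was an exception, at 2.185 to 4.254 CPM over the EV and WT libraries. That is near the median of silent olfactory and vomeronasal receptor windows, 1.83 CPM. Lmo2 was also low, at 11.35 to 21.19 CPM. Macrophage markers summed to 56.4 to 58.4 CPM with EV and 44.2 to 54.4 with WT over 6 genes, lymphoid markers to 55.3 to 65.5 and 53.9 to 68.2 over 5 genes, and fibroblast markers to 43.7 to 51.1 and 24.7 to 44.6 over 4 genes. No marker of these lists was at 0. The libraries fell into batches: the variance between libraries was 9.06 to 10.4 times the counting variance between replicate 1 and replicate 2 or 3 of the same construct. It was 2.17 times between WT and EV within replicate 1, 6.66 to 8.65 times between WT and EV libraries of replicates 2 and 3, 1.25 times between EV replicates 2 and 3, and 2.49 times between WT replicates 2 and 3. Results are therefore given for replicate 1 apart from replicates 2 and 3.

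Windows of chromosomes 12, 17 and X carried more H3K4me2 in WT than in EV cells, as whole stretches of chromosome and in replicates 2 and 3 alone. Over the first 95 Mb of chromosome 12 (527 windows) the median log2 difference between WT and EV was 0.75 in replicates 2 and 3 and 0.01 in replicate 1. Over the rest of that chromosome (434 windows) it was 0.00 in replicates 2 and 3. All of chromosome 17 (1170 windows) lay at 0.41 in replicates 2 and 3 and at -0.04 in replicate 1. On chromosome X the windows beyond 130 Mb (273 windows) lay at 0.74 and the other 650 at -0.10 in replicates 2 and 3. Chromosome 18 stood apart in replicate 1 instead, at 0.12 over 588 windows, against -0.05 in replicates 2 and 3. The mutant libraries were also high on the first part of chromosome 12: against the mean of the 3 constructs, the medians in replicates 2 and 3 were -0.46 for EV, 0.29 for WT and 0.18 for mutant Snai1. On chromosome 17 they were -0.19, 0.24 and -0.06, and beyond 130 Mb of chromosome X -0.29, 0.38 and -0.06 in the same order.

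The same stretches stood apart in H3K4me1 libraries of the same constructs. The median H3K4me1 difference in replicates 2 and 3 was 0.70 over the first part of chromosome 12, 0.42 over chromosome 17 and 0.75 over the end of chromosome X. It was 0.13 over chromosome 18 in replicate 1. In replicates 2 and 3, 93.2% of windows in the first part of chromosome 12 and 86.6% of those on chromosome 17 were higher in WT than in EV. Of the 140 segments of 20 Mb with at least 20 windows, 13 differed by 0.3 or more in both replicate 2 and replicate 3. These were 5 segments on chromosome 12, 5 on chromosome 17 and 3 on chromosome X, at 0.38 to 0.84, and in replicate 1 the same segments lay at -0.05 to 0.06. What moved these stretches was not tested, and number of chromosome copies and mark per copy cannot be told apart in these counts.

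**Figure D1:**
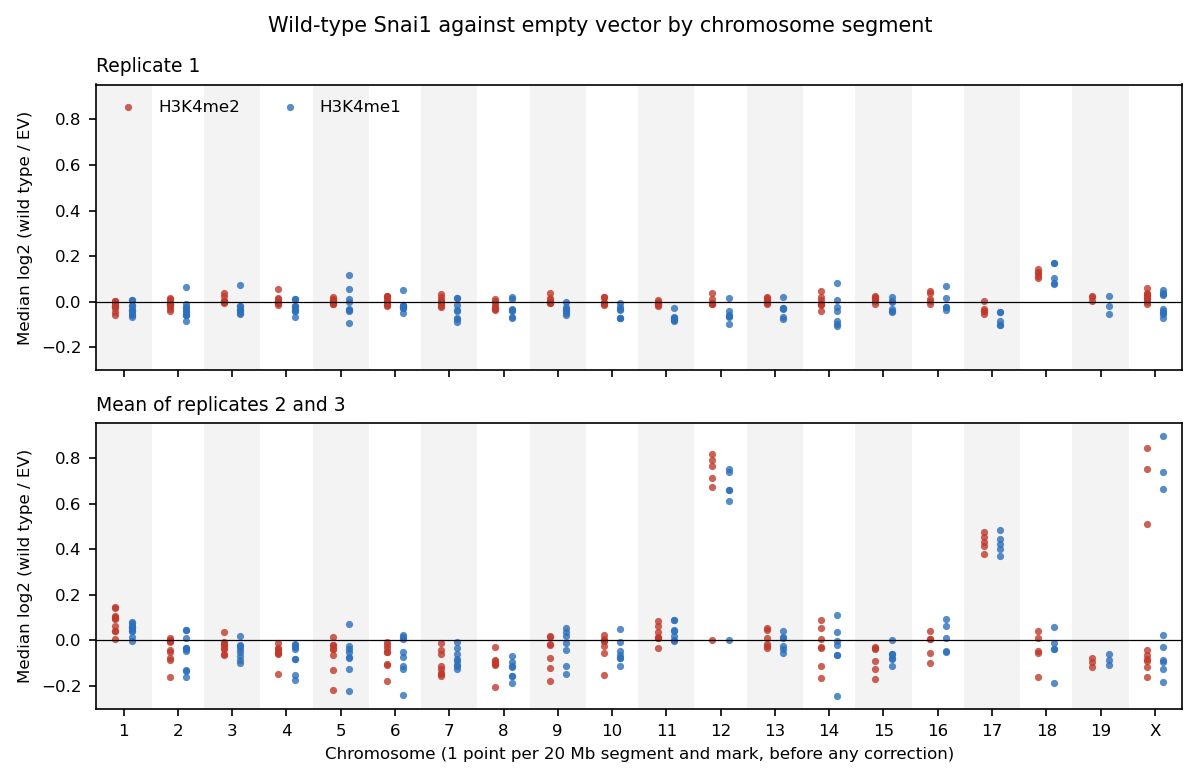
Median log2 difference in reads between wild-type Snai1 and EV per 20 Mb segment, by chromosome, before any correction, for H3K4me2 and H3K4me1. In replicates 2 and 3 (lower panel) 5 segments of chromosome 12, 5 of chromosome 17 and 3 of chromosome X lay at 0.38 or above in H3K4me2, and in replicate 1 (upper panel) chromosome 18 stood apart.

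Each library's median shift per chromosome was removed before the test. Because the shifts on chromosomes 12 and X cover only part of the chromosome, 1 shift per chromosome under-corrects the shifted part and over-corrects the rest. In the fit of replicates 2 and 3 alone, the share of windows called on the distal part of chromosome 12 was 23.1% with no correction, 40.5% with one shift per chromosome and 22.9% with one shift per 20 Mb segment. On the first part of that chromosome the shares were 62.6%, 50.9% and 17% in the same order, on chromosome 17 59.8%, 21.2% and 20.2%, and elsewhere 20.6%, 20.7% and 20.0%. Several genes of H3K4 regulation lie in these stretches. Kdm5c, an H3K4 demethylase at chrX:152233198-152279102, had a log2 fold change of 0.51 uncorrected, 0.46 with the chromosome shift removed and 0.02 with the segment shift removed. Rcor1, which encodes the CoREST scaffold of Lsd1 on the distal part of chromosome 12, had 0.04, -0.29 and 0.03. Id2, an inhibitor of E proteins, had 0.67, 0.39 and 0.27, and the cyclin gene Ccnd3 had 0.35, 0.09 and 0.11. The cell cycle inhibitor gene Cdkn1a on chromosome 17 kept 0.43 and 0.44 of 0.68.

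Across all windows, H3K4me2 rose over Glyat alone in the fit of all 9 libraries. By edgeR (quasi-likelihood, two-sided, adjusted over all windows, threshold 0.05), 1 of 25742 windows passed (0.00388%), and 1705 had an unadjusted p under 0.05 (6.62%). EV and WT libraries of the same replicate number deviated together, but WT and mutant libraries did not in replicates 1 and 2. With the replicate number as a block 80 windows passed (0.311%), 44 higher (0.171%) and 36 lower (0.14%). With the block and one shift per segment 2 passed, Glyat and Cpa3, so the blocked count depends on how the shifts were removed. Every other window said below to pass with the block did so only with one shift per chromosome. DESeq2 called 98 windows (0.381%). With replicates 2 and 3 summed to 1 sample and a batch term, 65 of 26018 passed (0.25%), 36 higher (0.138%) and 29 lower (0.111%), and 74 passed (0.284%) with one shift per segment, 62 of them the same windows. That fit sets 2 samples per construct side by side. Within replicates 2 and 3 alone 5639 of 25787 windows passed (21.9%), but those libraries may be repeats of 1 culture, and that count rests on a spread of 1.25 times the counting variance between the EV libraries and 2.49 times between the WT libraries.

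The difference in replicate 1 did not carry over to replicates 2 and 3 for most windows. Over the 12280 windows with at least 20 CPM in the higher group, the log2 differences of the batches had a Pearson r of 0.06 across windows, and 51.3% had the same sign. Windows are not independent replicates, and the SD across them was 0.13 in replicate 1 and 0.34 in replicates 2 and 3. Of 18300 windows at or above 3.66 CPM in the higher group, which is 2 times the median of silent olfactory and vomeronasal receptor windows, 114 differed by at least 0.5 in the same direction in both batches and 115 in opposite directions. Of the 114, 22 were higher in WT and 92 were lower. In replicates 2 and 3 windows of low level lay lower in WT as a class. Their median log2 difference was -0.28 at 2 to 5 CPM and -0.17 at 5 to 20 CPM. The part of this in the split of 22 and 92 was not tested. H3K4me1 had the same sign at 90.9% of the 22 in replicate 1 and 95.5% in replicates 2 and 3, and at 87.0% and 94.6% of the 92. The H3K4me1 libraries have the same constructs and replicate numbers, so they are another readout and not other cells as far as the labels say.

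**Figure D2:**
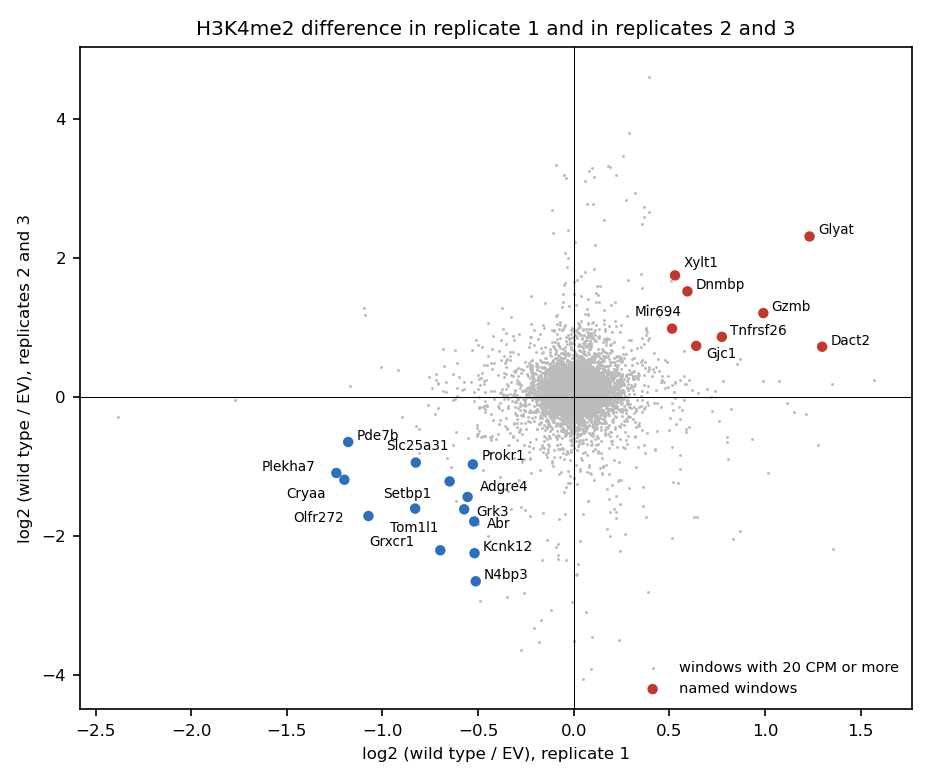
Log2 difference in H3K4me2 between wild-type Snai1 and EV in replicate 1 (x axis) and in replicates 2 and 3 (y axis), for windows with at least 20 CPM in the higher group (grey) and for the 22 named windows (red higher, blue lower), which were chosen for lying away from 0 on both axes. The grey cloud is wider along the y axis (SD 0.34) than along the x axis (SD 0.13) and has no slope to the eye (r = 0.06).

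Among windows higher in WT, 8 met the naming rule, which asks for a difference of at least 0.5 in both batches and for groups that do not overlap. The rule used those values, so they are given as a description. Over all windows the 3 WT libraries lay above the 3 EV libraries in 6.49% and below them in 6.98%. Glyat (chr19:12633308-12651737), which encodes a mitochondrial glycine N-acyltransferase known from liver and kidney, had the smallest p of all windows. Its CPM, with the chromosome shift removed, was 14.8, 11.8 and 13.2 in EV replicates 1 to 3 and 34.9, 61.0 and 63.7 in WT replicates 1 to 3. In the mutant Snai1 libraries it was 20.4, 14.1 and 14.1. Every WT library stood above every EV and every mutant library. The log2 fold change was 2.00 (SE 0.249, edgeR adjusted p = 0.0253), 1.23 in replicate 1 and 2.32 in replicates 2 and 3. The call was lost in the fit of the 6 compared libraries only and when any of EV replicates 2 and 3 or WT replicates 2 and 3 was left out, with an edgeR adjusted p of up to 0.316 over the left-out libraries. H3K4me1 was also higher, by 0.86 in replicate 1 and 1.38 in replicates 2 and 3. The neighbouring windows on either side, Gm4952 and Olfr1442, had log2 fold changes of 0.40 and -0.31, and neither passed.

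Tnfrsf26 (chr7:143607685-143627845), a member of the tumour necrosis factor receptor family, was higher in WT to a like degree in both batches. Its CPM was 43.5, 61.7 and 74.3 in the EV libraries, 74.4, 122 and 126 in the WT libraries and 44.9, 46.4 and 54.6 in the mutant libraries. The highest EV library lay just below the lowest WT library. The log2 difference was 0.77 in replicate 1 and 0.87 in replicates 2 and 3 (edgeR adjusted p = 0.450 in the fit of all libraries, 0.00476 with the block, 0.00211 with replicates 2 and 3 summed). The related genes Tnfrsf22 and Tnfrsf23 beside it had log2 fold changes of 0.08 and 0.25. Cpa3 (chr3:20215616-20242209), the carboxypeptidase of mast cell granules, had CPM of 34.0, 93.9 and 104 in EV, 89.7, 167 and 182 in WT and 34.8, 81.2 and 89.0 in mutant libraries. Within each replicate number WT was the highest of the 3 constructs, but the groups overlap because replicate 1 was lower throughout. Its log2 difference was 1.40 in replicate 1 and 0.82 in replicates 2 and 3 (edgeR adjusted p = 0.698 in the fit of all libraries, 0.000676 with the block, 0.0299 with the block and segment shifts, 3.83e-06 with replicates 2 and 3 summed).

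The other 6 named windows that were higher in WT did not pass in the fit of all libraries, with the block or with the replicates summed. Gzmb, the cytotoxic granule protease granzyme B, which mast cells also make, had 2.94, 2.99 and 3.65 CPM with EV and 5.92, 6.91 and 8.71 with WT. Those levels lie close to that of silent genes, and the groups do not overlap. Its H3K4me1 CPM was 5.44, 10.3 and 9.84 with EV and 18.3, 37.5 and 33.3 with WT, a larger difference in both batches. Dnmbp, a Cdc42 exchange factor, had 4.1, 6.1 and 3.8 CPM with EV against 6.3, 11.8 and 16.4 with WT. Xylt1, which starts glycosaminoglycan chains, Gjc1, a gap junction connexin, Dact2, a Dishevelled-binding protein, and the microRNA gene Mir694 had log2 fold changes between 0.71 and 1.35. Over the 8 named windows the 3 mutant libraries lay below all WT libraries at 4, namely Glyat, Gzmb, Tnfrsf26 and Mir694. Over all windows with WT above EV in every library that share was 12.4%. That set had no minimum difference, while the 8 were chosen for at least 0.5 in both batches, so the shares are not like for like.

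Windows lower in WT met the naming rule 53 times, and the 14 with the smallest p are named. The part in that count of the lower values of low-level windows in WT replicates 2 and 3 was not tested. Tom1l1 (chr11:90645690-90688279), an adaptor of endosomal sorting, had 42.5, 43.8 and 41.3 CPM in the EV libraries, 23.9, 12.7 and 15.3 in the WT libraries and 42.4, 43.7 and 37.5 in the mutant libraries. The EV and mutant libraries lay together and all WT libraries lay well below them. The log2 fold change was -1.28 (SE 0.200, edgeR adjusted p = 0.108 in the fit of all libraries), with -0.83 in replicate 1 and -1.60 in replicates 2 and 3. It passed with the block (edgeR adjusted p = 0.00216) and with replicates 2 and 3 summed (0.000423). The windows of Cox11 and Stxbp4 next to it had log2 fold changes of -0.05 each.

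N4bp3 (chr11:51643081-51651073), which encodes a binding partner of the ubiquitin ligase Nedd4, shares its window with D930048N14Rik, whose start lies 119 bp away, so the genes cannot be told apart. Its CPM was 37.5, 88.8 and 83.6 with EV, 26.2, 16.3 and 11.4 with WT and 37.1, 57.0 and 64.1 with mutant Snai1. The WT libraries were the lowest in each batch, by -0.51 in replicate 1 and -2.65 in replicates 2 and 3 on the log2 scale. By edgeR the adjusted p was 0.144 in the fit of all libraries, 0.0104 with the block and 2.11e-09 with the replicates summed. N4bp3 was the only one of the 22 windows with a WT Snai1 peak within 5 kb of a gene end. That peak, at chr11:51644356-51644686, had a fold enrichment of 12.6 in the authors' list, lay 6387 bp from the start and was also in the mutant Snai1 list. Xylt1, Plekha7 and Abr had a WT peak within the gene but farther than 5 kb from its ends, at 8.55-fold, 5.81-fold and 7.72-fold.

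Adgre4 (chr17:55749984-55853662), an adhesion receptor of macrophages, had 49.0, 83.1 and 97.3 CPM with EV, 33.3, 30.7 and 36.0 with WT and 59.0, 95.7 and 104 with mutant Snai1. WT libraries were alike in both batches, and the EV and mutant libraries were all higher. The log2 fold change was -1.19 with the chromosome shift removed and -0.89 without (edgeR adjusted p = 0.277 in the fit of all libraries, 0.000115 with the replicates summed). Kcnk12, a potassium channel gene at chr17:87745821-87797994, had 36.7, 41.5 and 43.1 CPM with EV, 25.6, 8.75 and 8.98 with WT and 42.8, 30.4 and 31.9 with mutant Snai1. Its difference was -0.52 in replicate 1 and -2.25 in replicates 2 and 3 (edgeR adjusted p = 0.000129 with the replicates summed). The cyclic AMP phosphodiesterase gene Pde7b had 74.3, 65.6 and 75.3 CPM with EV, 32.8, 43.1 and 46.8 with WT and 81.7, 59.8 and 55.9 with mutant Snai1. Pde7b differed more in replicate 1 (-1.18) than in replicates 2 and 3 (-0.64), and its H3K4me1 difference was -0.39 and 0.07. Grxcr1, a hair cell protein gene, had 10.8, 14.98 and 16.9 CPM with EV and 6.63, 3.34 and 3.46 with WT. With the replicates summed Pde7b and Grxcr1 passed (edgeR adjusted p = 0.000986 and 0.0333), and with the block Adgre4, Kcnk12, Pde7b and Grxcr1 passed (0.00216, 0.0104, 0.0329 and 0.0218).

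**Figure D3:**
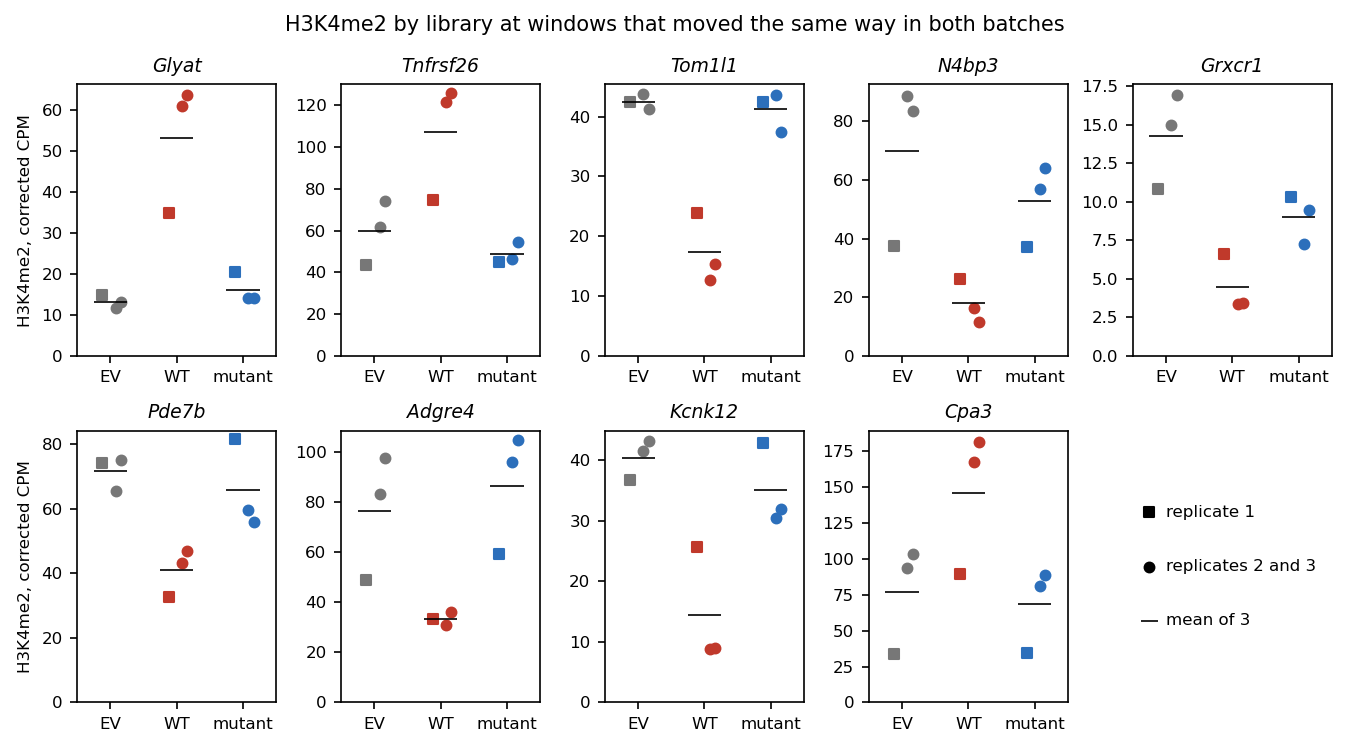
H3K4me2 (CPM with the chromosome shift removed) in each library for the 8 windows that met the naming rule and passed with replicates 2 and 3 summed, and for Cpa3. Squares are replicate 1, circles replicates 2 and 3 and lines the mean of 3, and the WT libraries lay on one side of the EV libraries in the first 8 panels.

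The other 8 named windows lower in WT were Cryaa, a lens chaperone, Plekha7, a junction protein, Abr, Setbp1, Grk3, a receptor kinase, Slc25a31, an ADP/ATP carrier of testis, Prokr1, a prokineticin receptor, and the olfactory receptor Olfr272. They had EV means between 3.89 and 15.9 CPM and log2 fold changes from -1.51 to -0.81. Their groups did not overlap, which the rule required. None passed with the replicates summed, while Cryaa, Plekha7 and Abr passed with the block (edgeR adjusted p = 0.0297, 0.0460 and 0.0398). Cryaa lies on chromosome 17, whose windows were shifted by 0.41 in replicates 2 and 3 and by -0.04 in replicate 1. With that shift removed it had like differences in both batches, -1.20 and -1.19, with 10.9, 14.2 and 13.1 CPM with EV against 4.7, 6.2 and 5.8 with WT. At 12 of the 14 windows lower in WT all 3 mutant libraries lay above all 3 WT libraries, with Grk3 and Prokr1 as exceptions. Over all windows with WT below EV in every library that share was 29.6%, and the mutant libraries entered the fit that ranked the windows. Unlike the 14, that set had no minimum difference. Silent windows had a median of 1.51, 2.84 and 2.67 CPM in mutant replicates 1 to 3. With WT that median was 1.77, 1.64 and 1.84 CPM, and the part of this background in the mutant values was not tested. H3K4me1 was lower at 13 of the 14 in replicate 1 and at 13 in replicates 2 and 3. Over all windows with WT below EV in every library those shares were 50.9% and 82.6%. Over the 92 windows lower by at least 0.5 in both batches, which are more like the 14, they were 87.0% and 94.6%.

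Most windows that passed with replicates 2 and 3 summed differed in only 1 batch. Of the 65, 51 had the same sign in both batches, 41 had groups that did not overlap, against 13.5% of all windows, and 11 differed by at least 0.5 in both. Those 11 were the 8 named windows that passed, D930048N14Rik in the window of N4bp3, Cpa3 and the endocytic adaptor gene Sgip1. Sgip1 had 56.4, 31.5 and 29.1 CPM with EV and 36.8, 9.97 and 11.5 with WT, lower at each replicate number with groups that overlap. Sgip1 and the windows that follow, up to Mir34a, were chosen after their values were seen. Dtx4, a Deltex ubiquitin ligase gene of the Notch pathway near Glyat on chromosome 19, had 44.0, 5.32 and 4.88 CPM with EV, 53.8, 79.5 and 65.2 with WT and 43.7, 11.7 and 13.1 with mutant Snai1. In replicate 1 the 3 constructs were alike, and in replicates 2 and 3 WT stood far above the others. Eda2r, a receptor for ectodysplasin A2, had 34.0, 5.09 and 5.76 CPM with EV and 36.3, 54.7 and 53.3 with WT, and Itgb4, the integrin of hemidesmosomes, had 14.4, 3.98 and 4.06 with EV and 14.99, 40.8 and 30.8 with WT. Both had WT and EV alike in replicate 1 and far apart in the other replicates, like Dtx4.

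Among windows lower in WT in replicates 2 and 3 alone was Wls, which carries Wnt proteins to the cell surface, with 55.0, 86.0 and 84.8 CPM in EV and 57.4, 9.20 and 10.8 in WT libraries. Tsc22d1, a leucine zipper gene, had 13.8, 34.4 and 30.8 CPM with EV and 11.3, 2.74 and 2.33 with WT. H2-Ab1, an MHC class II chain gene, had 23.5, 54.1 and 56.7 with EV and 21.0, 11.3 and 10.4 with WT. In replicate 1 WT and EV differed by between -0.28 and 0.06 at these 3, so the difference lay in the other libraries. Gpc3, a glypican gene on chromosome X, had 49.6, 35.0 and 33.3 CPM with EV and 35.2, 4.13 and 4.70 with WT, and the mutant libraries, at 56.3, 2.86 and 3.66, had the same split. The interleukin 10 receptor gene Il10ra was the converse, with 75.6, 81.2 and 87.3 CPM with EV and 14.5, 68.2 and 69.8 with WT. It differed by -2.38 in replicate 1 and by -0.29 in replicates 2 and 3.

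**Figure D4:**
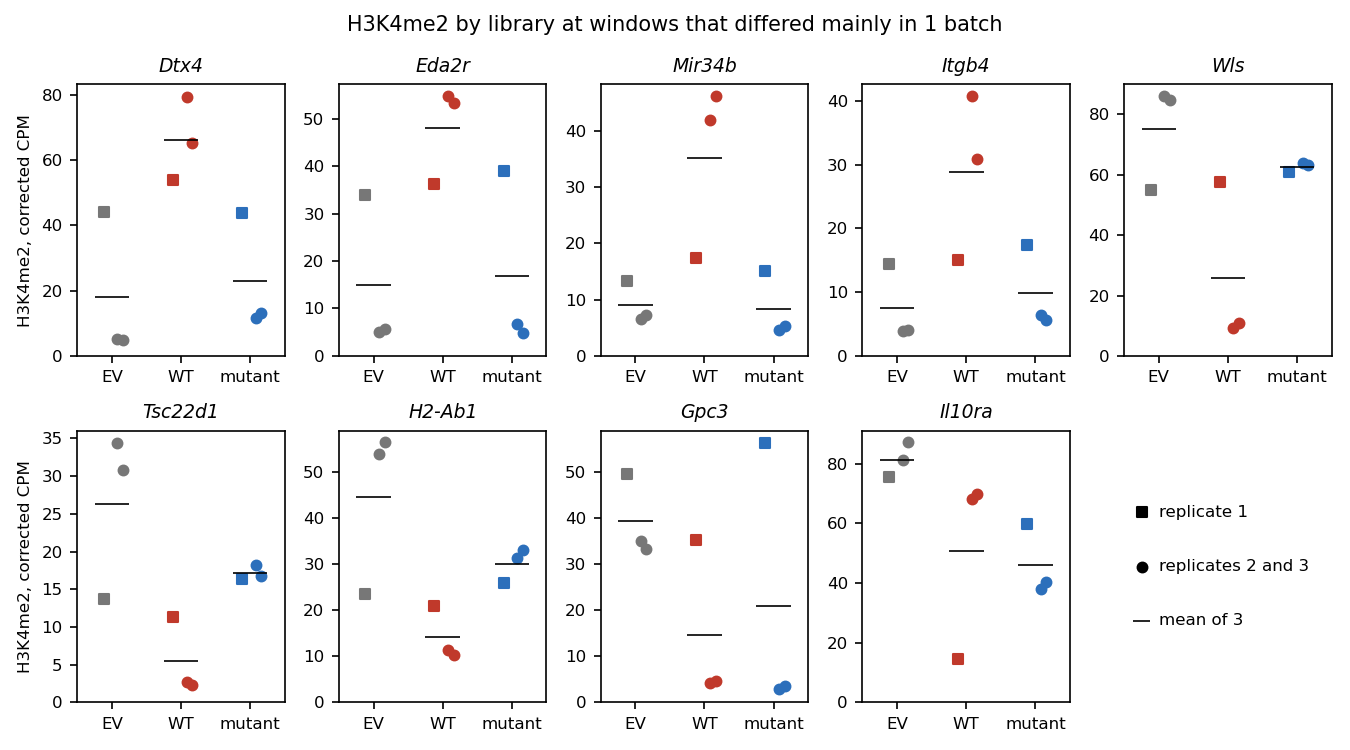
H3K4me2 (CPM with the chromosome shift removed) in each library at 9 windows that passed with replicates 2 and 3 summed but differed mainly in 1 batch, chosen after their values were seen. Squares (replicate 1) of WT and EV lie close together in the first 7 panels while circles (replicates 2 and 3) lie far apart, and at Il10ra the WT square stands alone.

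Mir34b and Mir34c, microRNA genes known as targets of p53, lie on chromosome 9 with the gene Hoatz and share reads with it. Mir34b had 13.3, 6.49 and 7.29 CPM with EV, 17.4, 42.1 and 46.2 with WT and 15.1, 4.52 and 5.36 with mutant Snai1. WT was the highest at each replicate number, by 0.39 in replicate 1 and 2.67 in replicates 2 and 3 on the log2 scale (edgeR adjusted p = 0.000568 with the replicates summed). Mir34a on chromosome 4, which has the same 5p seed as Mir34b, had 2.26, 4.30 and 3.52 CPM with EV and 3.50, 4.44 and 2.87 with WT, and the groups overlap. Mature sequences from RefSeq (GRCm38.p6) are printed to show the shared seeds, with bases 2 to 8 in capitals.
mmu-miR-34b-5p: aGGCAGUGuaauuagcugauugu
mmu-miR-34a-5p: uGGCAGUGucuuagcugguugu
mmu-miR-34b-3p: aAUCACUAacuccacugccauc
mmu-miR-34c-3p: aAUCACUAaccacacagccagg
The 5p arms share GGCAGUG and the 3p arms of Mir34b and Mir34c share AUCACUA.

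Among the genes of Snai1 and its partners, none passed. At Snai1 itself (chr2:167538195-167542814) the vector cDNA can add reads to the window. Its CPM was 28.1, 35.4 and 26.6 with EV, 34.6, 56.4 and 42.6 with WT and 60.0, 28.6 and 26.6 with mutant Snai1, so WT and EV groups overlap. The log2 fold change was 0.57 (SE 0.271, edgeR adjusted p = 0.763). Kdm1a, which encodes Lsd1, had 54.0, 67.7 and 73.9 with EV and 56.5, 78.2 and 73.2 with WT (log2 fold change 0.09). Gfi1b had 87.5, 114 and 116 with EV and 95.6, 128 and 126 with WT (0.14). Gfi1, a SNAG repressor of myeloid development, had 17.9, 43.2 and 37.6 CPM with EV and 20.6, 17.98 and 15.4 with WT, which is 0.20 in replicate 1 and -1.27 in replicates 2 and 3 on the log2 scale. Its mutant libraries, at 13.3, 15.7 and 17.8, were low as well. Over the 23 genes of the Lsd1 complex list 16 lay above 0 and 7 below, with a median of 0.05, and over the 22 genes of H3K4 enzymes 17 lay above 0 and 5 below, with a median of 0.08. Over all windows 49.3% lay above 0 and the median was 0.00. The median levels of these lists were 88.4 and 95.4 CPM. Of 7055 windows of 50 to 100 CPM 5230 lay above 0, with a median of 0.06, so both lists lay near windows of like level.

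The direction of a list has to be read beside its level, because in replicates 2 and 3 the difference followed the level of the mark. In windows of 2 to 5 CPM the median log2 difference in replicates 2 and 3 was -0.28, and in windows of 100 to 200 CPM it was 0.12, with 20.8% and 81.6% of windows above 0. In replicate 1 these medians were 0.01 and 0.00. The ratio of housekeeping to silent windows was 50.4 with EV and 48.3 with WT in replicate 1, 44.4 and 54.1 in replicate 2, and 36.7 and 47.9 in replicate 3. With mutant Snai1 it was 59.9, 27.6 and 29.3 in replicates 1 to 3. Signal over background moved with construct in replicates 2 and 3, and its part in the list results was not tested. In each of the 15 lists 0 members passed in the fit of all libraries, against 0.00388% of all windows. The list values by batch that follow have one shift per segment removed.

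Granulocyte and monocyte genes lay lower in WT in replicates 2 and 3. Of 43 members 12 were above 0 and 31 below in the fit of all libraries, with a median of -0.16. The median was 0.06 in replicate 1 and -0.32 in replicates 2 and 3, where windows of 20 to 50 CPM lay at 0.06. In replicate 1 27 of the 43 lay above 0, and in replicates 2 and 3 10 did. All WT libraries lay above the EV libraries at 3 members and below them at 7, against 6.49% and 6.98% of all windows. The fractalkine receptor gene Cx3cr1 had 8.96, 20.8 and 19.4 CPM with EV and 6.48, 4.27 and 4.89 with WT, with groups that do not overlap, and passed with the block (edgeR adjusted p = 0.0329) but not with the replicates summed (edgeR adjusted p = 0.0960). Lyz2, lysozyme of granulocytes and macrophages, had 19.7, 24.9 and 23.4 with EV and 15.7, 7.69 and 8.11 with WT. Csf1r, the receptor for macrophage colony-stimulating factor, had 33.2, 49.1 and 51.2 with EV and 27.5, 26.9 and 26.8 with WT, and its mutant libraries had 36.1, 25.4 and 25.2. These 3 were lower in WT in both batches, by -0.27 to -0.46 in replicate 1, but they were chosen by their p and none passed in the fit of all libraries. Macrophage and dendritic genes, at a median level of 5.82 CPM, had a median of -0.44 in replicates 2 and 3 and -0.09 in replicate 1 over 15 members. All windows of 5 to 20 CPM lay at -0.17 in replicates 2 and 3.

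Mast cell and basophil genes had a median of 0.15 in replicate 1 and 0.00 in replicates 2 and 3 over 24 members, with 18 above 0 in replicate 1 and 12 in replicates 2 and 3. In the fit of all libraries 13 lay above 0 and 11 below. Beside Cpa3 and Gzmb, which were higher in WT, the interleukin 33 receptor gene Il1rl1 had 27.4, 20.1 and 20.1 CPM with EV, 30.0, 36.7 and 37.9 with WT and 30.3, 30.6 and 27.6 with mutant Snai1. The 3 chain genes of the high-affinity IgE receptor, chosen after their values were seen, went in different directions in replicates 2 and 3. Ms4a2 had 7.36, 3.32 and 4.21 CPM with EV and 7.55, 6.88 and 6.79 with WT. Fcer1g had 53.9, 156.3 and 160.8 CPM with EV and 72.2, 93.2 and 95.4 with WT, higher in WT in replicate 1. Fcer1a had 4.60, 4.08 and 6.63 with EV and 3.90, 3.43 and 3.65 with WT, so all WT libraries lay below the EV libraries at a low level. The summed CPM of 5 mast cell markers was 87.2 to 146 with EV and 142 to 243 with WT, of which Cpa3 gave 33.99 to 108 and 88.6 to 184. Bulk reads cannot tell more cells with the mark from more mark per cell. Stem and progenitor genes had medians near 0, 0.01 in replicate 1 and 0.08 in replicates 2 and 3 over 32 members. Bmi1, a Polycomb gene, had 112.5, 98.5 and 92.7 CPM with EV and 117, 147 and 117 with WT, and Angpt1, a Tie2 ligand, had 73.4, 129.8 and 134 with EV and 108, 146 and 166 with WT. The Angpt1 groups overlap, and the Bmi1 WT libraries lie just above the EV libraries.

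Epithelial genes, which Snai1 is known to repress in epithelia, had a median of -0.08 over 32 members, with 12 above 0 and 20 below. Their median was 0.03 in replicate 1 and -0.16 in replicates 2 and 3, where windows of 5 to 20 CPM lay at -0.17. Krt8, a keratin, had 5.46, 6.37 and 5.32 CPM with EV and 4.86, 2.30 and 2.19 with WT, while the tight junction gene Ocln was higher in WT in replicates 2 and 3, at 35.6 and 32.1 against 4.88 and 5.40. In replicate 1 Ocln had 23.6 with EV and 21.8 with WT. With the replicates summed Ocln passed (edgeR adjusted p = 0.00921), the only 1 of the 32 that did. Mesenchymal genes had a median of -0.38 in replicates 2 and 3 and 0.04 in replicate 1 over 26 members. Zeb2, a repressor of epithelial genes that blood progenitors also use, went the other way, with 220 CPM in EV replicate 1 and 108 and 102 in EV replicates 2 and 3, against 231, 224 and 212 with WT. Its mutant libraries, at 249, 162 and 184, lay between in replicates 2 and 3.

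Cell cycle genes had a median of 0.12 in the fit of all libraries, with 29 of 31 members above 0. In that fit 5230 of 7055 windows of 50 to 100 CPM lay above 0, with a median of 0.06. The median of the list was 0.01 in replicate 1 and 0.18 in replicates 2 and 3, against 0.09 in replicates 2 and 3 for windows of 50 to 100 CPM. Cdkn1a, the p21 inhibitor, had 144, 125 and 133 CPM with EV, 156, 191 and 197 with WT and 158, 124 and 124 with mutant Snai1. All WT libraries were above the EV libraries, by 0.11 in replicate 1 and 0.59 in replicates 2 and 3. The list of p53 and apoptosis genes had 16 of 22 members above 0 and a median of 0.10 in replicates 2 and 3. In it Mdm2, the ubiquitin ligase of p53, had 83.7, 65.6 and 60.6 with EV and 80.1, 98.0 and 98.9 with WT. Gadd45a, another known p53 target, was chosen after its values were seen. It went the other way, from 37.6, 38.6 and 40.5 with EV to 35.6, 8.78 and 6.88 with WT. Gadd45a passed with the replicates summed (edgeR adjusted p = 0.01005). Bcl2a1a, which had the smallest p in the list, was also lower in WT. Its CPM was 1.7, 3.8 and 3.4 with EV and 1.5, 1.1 and 0.9 with WT, near the level of silent windows. Interferon and retroviral genes (median 0.01 in replicates 2 and 3 over 26 members), lymphoid genes (0.02 over 26), erythroid and megakaryocytic genes (0.09 over 30), cytokine receptors (-0.03 over 31) and housekeeping genes (0.07 over 27) had medians within 0.05 of 0 in replicate 1.

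**Figure D5:**
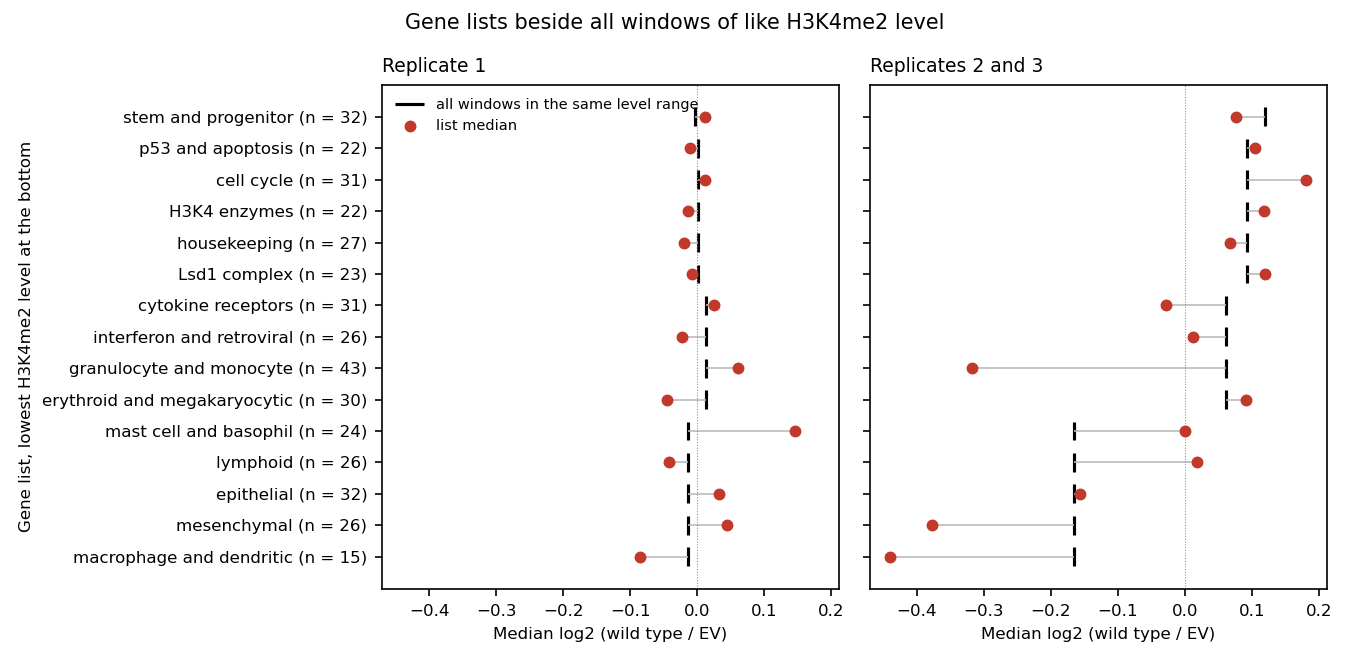
Median log2 difference in H3K4me2 between wild-type Snai1 and EV over the members of each gene list (red points) and over all windows in the level range that holds the list's median level (black bars), with one shift per 20 Mb segment removed. In replicates 2 and 3 the granulocyte and monocyte list (-0.32) lies furthest from its level range (0.06), and in replicate 1 the mast cell and basophil list (0.15) does.

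Other lineage genes with the smallest p in their lists differed mainly in replicates 2 and 3. Il7r, the interleukin 7 receptor of lymphoid progenitors, had 4.00, 9.93 and 11.0 CPM with EV and 3.34, 2.63 and 3.76 with WT. The T cell gene Cd4 had 7.31, 6.43 and 8.12 with EV and 5.87, 3.60 and 3.49 with WT. At both genes the WT libraries all lay below the EV libraries, at levels only a few times that of silent windows. Sptb, the red cell spectrin gene on the shifted part of chromosome 12, had a log2 fold change of -0.52 uncorrected, -0.84 with the chromosome shift removed and -1.03 with the segment shift removed. Its direction did not depend on the correction but its size did. The erythroid factor gene Nfe2 had 177, 198 and 214 CPM with EV and 193, 257 and 279 with WT, with groups that overlap. The platelet glycoprotein gene Gp9 had 49.9, 48.6 and 49.5 with EV and 40.0, 77.7 and 76.0 with WT, so it was lower in replicate 1 and higher in the others. Ifit1, an interferon-induced gene, had 11.2, 20.9 and 18.2 with EV and 12.5, 8.91 and 11.1 with WT, also in opposite directions between the batches. Kmt2c, an H3K4 methyltransferase gene, had 109, 99.6 and 94.1 with EV and 110.2, 123 and 110.5 with WT. None of these passed in the fit of all libraries.

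Windows of genes near WT Snai1 peaks lay slightly above 0 as a set, near other windows of like level. Of 2929 peaks in the WT list, 2838 overlapped no EV peak, and 1897 tested windows belonged to genes with such a peak within 5 kb of either annotated end. Of these 0 passed in the fit of all libraries (0.00388% of all windows), and 5 passed with the replicates summed (0.25% of all windows). They lay above 0 in 1262 cases and below in 635, with a median of 0.05, which was -0.01 in replicate 1 and 0.09 in replicates 2 and 3. Their median EV level was 77.9 CPM, and all windows of 50 to 100 CPM had a median of 0.06, with 5230 of 7055 above 0. For peaks within 5 kb of an annotated start (1279 windows) the median was 0.05. For peaks of at least 10-fold enrichment (245 windows) the median was 0.03. For windows whose peak was absent from the mutant list (265) it was 0.04, and for those with a peak in both lists (1674) it was 0.05. With the replicates summed 4 of the 265 passed and 1 of the 1674, and the difference between these counts was not tested. The peaks have 1 list per construct and so no replicate check.

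Nacc2, a BTB repressor gene with a peak at chr2:26119580-26119819, had 33.8, 36.4 and 29.7 CPM with EV and 43.6, 66.3 and 47.2 with WT. Tbxa2r, the thromboxane receptor gene with a peak at chr10:81329269-81329501, had 15.6, 15.8 and 13.3 with EV and 16.4, 38.5 and 38.7 with WT. Nuak2, a kinase gene with a peak at chr1:132319255-132319513, had 45.5, 64.8 and 68.0 with EV and 37.1, 45.3 and 41.7 with WT. Nacc2 and Tbxa2r were higher and Nuak2 was lower in WT at each replicate number, and none of the 3 passed in the fit of all libraries. Nacc2 passed with the block (edgeR adjusted p = 0.0390) but not with the replicates summed (edgeR adjusted p = 0.594). These 3 peaks were also in the mutant list. Itgb4, whose values are given above, had a WT peak at chr11:116012175-116012406, 3763 bases from an annotated end of the gene, that was absent from the mutant list. It passed with the block (edgeR adjusted p = 0.0398) and with the replicates summed (edgeR adjusted p = 0.00108), with the difference in replicates 2 and 3 alone. The lysosomal protease gene Lgmn, on the distal part of chromosome 12, had a log2 difference in replicates 2 and 3 of -0.98 with the chromosome shift removed and -0.51 with the segment shift removed, and 0.01 in replicate 1. Its WT peak lay 1789 bases from a gene end but 47435 bases from the start, which is outside a window of 5 kb around the start.

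The E-box CAGGTG, on either strand, was present in 19.5% of the 300-base promoters of 17850 tested windows and in 25.1% of 1524 promoters of genes near a WT peak. Windows whose promoter held it had a median log2 fold change of -0.03 and a median EV level of 9.38 CPM, and those without it 0.01 and 35.6 CPM. Of the 22 named windows 15 had a promoter sequence, and 2 of those, Tom1l1 and Kcnk12, held the motif in the first listed promoter. A match is a description of the letters and not a binding site: neither gene had a WT peak within 5 kb of its ends.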

How the data were processed

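ChIP-seq of HPC7 cells was deposited as raw read counts, made by the authors with Subread and featureCounts per the submitters' processing notes (builds GRCm38 and mm10, no versions), with 1 window of 5 kb per gene ID per the table's name. Windows have no coordinates in the table and neighbours can share reads. Of 27095 IDs, 25204 (93.0%) matched a symbol in RefSeq's GRCm38.p6 table. Rows that repeated earlier counts (31) or held no read (20) were left out. Snai1 peaks are the authors' MACS2 lists, with a fold enrichment ratio and a −log10 q-value per peak, per the file headers, and 1 list per construct.

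Counts were tested with edgeR 4.0.16 (R 4.3.3): quasi-likelihood F-test over the 9 H3K4me2 libraries, TMM factors, filterByExpr, construct as the only term, and an offset holding each library's median shift per chromosome with at least 100 windows. P-values were adjusted (Benjamini-Hochberg) over all windows tested. Values by library are CPM on the TMM size with that shift removed, and log2 values use a prior count of 1. Alternatives were DESeq2 1.42.0, other scalings and filters, shifts per 20 Mb segment, a replicate block, a batch term, summed replicates and left-out libraries. With other scalings the shifts were centred on the library's median. Deviations from the group means of EV and WT libraries of the same number correlated at 0.323, 0.188 and 0.241. For EV and mutant libraries of the same number these values were 0.38, 0.152 and 0.307, and for WT and mutant libraries -0.067, -0.219 and 0.132. EV and WT libraries of unlike number within replicates 2 and 3 correlated at 0.146 and 0.072. Pairing by number thus did not hold between all constructs.

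Members, lists and rules were chosen with earlier results of these data known. Named windows are Snai1, Kdm1a, Gfi1 and Gfi1b; up to 14 per direction with the smallest p, a difference of at least 0.5 of the same sign in both batches, groups that do not overlap and a level at least 2 times the silent median; up to 10 per direction that passed with replicates summed under the same rule; 3 per list and 4 per direction near peaks by p. Predicted genes are named only as neighbours. The script was tested on simulated data. Depth limits precision: the median window held 72 to 143 reads in these 6 libraries.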

Additional observations from a re-analysis of the deposited data

How the results depend on the processing

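The number of windows that passed depended on the treatment of the batches. It was 1 in the fit reported and also without chromosome correction, with one shift per segment, with RLE factors, with centred shifts and with no filter. It was 98 with DESeq2, 91 with silent-family scaling (which moves the median of all windows to 0.12), 131 with a batch term, 65 with replicates 2 and 3 summed and a batch term, and 0 in the 6 compared libraries alone (1705 windows had an unadjusted p under 0.05 in the fit reported). With the replicate block it was 80. In replicates 2 and 3 alone it was 5639. Leaving out 1 library gave 0 to 284: 284 without EV replicate 1, 182 without WT replicate 1, and 0 without any of the other 4. Chosen after seeing the data, summing without chromosome correction gave 82 and with segment shifts 74, the block with segment shifts gave 2, and replicates 2 and 3 alone gave 5167 with segment shifts and 6062 without correction. The cause was not tested. No direction of a named window reversed where it was called. Glyat lost its call in 5 settings. At low levels few reads per window limit single calls.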
